A study of Homo sapiens with 4 samples.

Results

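The collagens described here are the 43 protein-coding human genes whose symbols follow the pattern COL, number, A, number, out of 60564 genes with a count value. COL11A2 is outside the set. The members were found by symbol and matched to the count tables by Ensembl identifier. The rule itself uses no measured value, though it was set with earlier results of these data known. RNA of Elf1 cells, a naïve human embryonic stem cell (ESC) line, was sequenced under 2 culture conditions with 2 biological replicates each, after depletion of ribosomal RNA. The 2-D grown cells adhered to plastic coated with Matrigel, a basement membrane extract from a mouse tumour. The 3-D grown cells were taken as single cells into PEG-8-SH/PEG-8-Acr scaffolds, which assemble around the cells from polyethylene glycol arms bearing thiol and acrylate groups, and stayed there for 21 days. Both conditions received the same ESC expansion medium, supplemented with FGF2, CHIR99021, a MEK inhibitor and human LIF. The comparison asks how collagen RNA of these cells differed between adherent and scaffold culture.

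Several features limit the cells as a model. All 4 libraries come from a single line, which had been kept on mouse feeder cells before it was moved to feeder-free Matrigel. Growth in a scaffold, the absence of a Matrigel coat, the dissociation step and the days since it cannot be told apart in this design. The RNA is bulk RNA, so that more cells of a kind and more RNA per cell cannot be told apart either.

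The 2-D libraries totalled 33833778 and 30114220 counts and those of 3-D 21154409 and 18276147. All 7 general pluripotency markers were measured, with a summed level of 4738 to 4768 CPM (counts scaled to a common library total) in 2-D and 4887 to 4968 in 3-D. DNMT3B alone of the 7 was called, as higher in 3-D (14.3%, against 4.54% of all tested genes). It had 1050 and 1052 CPM in 2-D and 1164 and 1203 in 3-D (edgeR adjusted p = 0.004289). DPPA4 was lower in both 3-D libraries without passing the test. The 6 markers of the naïve state summed to 53.7 to 57.6 CPM over the 4 libraries. Of these, TFCP2L1 had 22.1 to 23.8 CPM, DNMT3L 14.6 to 17.9, KLF4 9.26 to 10.4 and DPPA3 5.75 to 7.43, whereas KLF17 had 0.465 to 1.07 CPM and DPPA5 0.130 CPM or less. No library was set aside.

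Collagens are secreted proteins whose chains wind around one another into a rigid triple helix built of glycine-containing repeats. Fibrillar collagens form the banded fibres of connective tissue. Type IV collagens form the sheet of the basement membrane on which epithelial cells rest. Type VI collagen forms beaded filaments near cells, and FACIT collagens (fibril-associated collagens with interrupted triple helices) decorate the fibres. Other members anchor the basement membrane, span the plasma membrane or build short-chain networks. A helix of some types needs chains from more than 1 gene, which is why levels of partner chains are given side by side here. In the early embryo, type IV collagen is among the matrix proteins laid down under the epiblast and primitive endoderm.

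Type IV genes are arranged in head-to-head pairs, and the pairs that hold the type IV members called between the conditions are shown with the DNA before their start sites. The DNA before COL12A1, another called gene, is given beside them. These are the 3 called collagens of 6 that have a promoter window in the RefSeq table of GRCh38.p14. The start sites are those of RefSeq, while gene positions given further on are the outermost bounds in GENCODE release 44, so the COL4A1-COL4A2 and COL12A1 stretches lie wholly or mostly within those bounds. Capitals mark the motif CCAAT, whose reverse complement is ATTGG, the motif GGGCGG, whose reverse complement is CCGCCC, and the motif TATAAA, whose reverse complement is TTTATA. No stretch printed here holds the last of them.
COL4A1-COL4A2, the 126 bases between the start sites, chr13:110307158-110307283, plus strand: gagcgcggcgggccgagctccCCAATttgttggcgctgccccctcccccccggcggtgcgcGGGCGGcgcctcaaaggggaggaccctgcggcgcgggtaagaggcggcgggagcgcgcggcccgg
COL4A5, the 250 bases before its start site, chrX:108439588-108439837, plus strand: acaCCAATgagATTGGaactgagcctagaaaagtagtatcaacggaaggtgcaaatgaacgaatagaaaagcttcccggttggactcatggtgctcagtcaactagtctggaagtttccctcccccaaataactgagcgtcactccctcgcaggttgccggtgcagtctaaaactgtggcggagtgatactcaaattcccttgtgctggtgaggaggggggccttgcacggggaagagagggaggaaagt
COL12A1, the 250 bases before its start site, chr6:75206054-75206303, minus strand: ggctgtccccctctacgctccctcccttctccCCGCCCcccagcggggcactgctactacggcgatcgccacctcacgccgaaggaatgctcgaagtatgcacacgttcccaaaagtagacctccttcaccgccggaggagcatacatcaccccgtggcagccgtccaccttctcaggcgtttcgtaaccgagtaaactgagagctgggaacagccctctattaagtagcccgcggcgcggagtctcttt

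The stretch shared by COL4A1 and COL4A2 was the richest of these in G and C, at 80.2%, against 61.2% before COL12A1 and 51.2% before COL4A5. It held 1 CCAAT with its first letter 105 bases before the COL4A2 start site and 1 GGGCGG 65 bases before it. The COL4A5 stretch held CCAAT on both strands, 247 and 239 bases before its start, and the start site of its partner COL4A6 lies on the other side at a distance of 379 bases. The COL12A1 stretch held GGGCGG on the opposite strand only. Over all 40 windows of 300 bases that 31 collagen genes have in the table, CCAAT was present in 12, GGGCGG in 22 and TATAAA in 8. Over all 35116 windows in the table the shares were 34.6%, 44.95% and 11.5%. Such matches are letters in a window and say nothing about binding.

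Collagen genes together took 0.272% and 0.271% of all counts in 2-D and 0.265% and 0.289% in 3-D. These shares of raw counts overlapped. On the scale of edgeR's TMM factors, used for every other value here, the summed collagen CPM was 2672 and 2649 in 2-D and 2727 and 2951 in 3-D, higher in both 3-D libraries, so whether the pool as a whole differed depends on the scaling. Levels of different genes are compared as TMM-scaled CPM per kilobase of exons. On that scale COL18A1, the multiplexin whose C-terminal fragment is endostatin, came first at a mean of 96.8, above 98.5% of all tested genes. COL6A1 followed at 33.3, COL1A2 at 29.3, COL7A1 at 25.5, COL4A1 at 18.5 and COL1A1 at 14.6. COL9A3 at 14.5, COL6A2 at 11.7, COL26A1 at 11.6 and COL4A2 at 10.6 made up the rest of the 10 most abundant. Lower down were COL4A5 at 6.02, COL5A2 at 4.85, COL5A1 at 3.55, COL27A1 at 2.80, COL12A1 at 2.73, COL11A1 at 2.71, COL4A6 at 2.16, COL3A1 at 1.96 and COL14A1 at 1.83. COL3A1 therefore stood near the middle of the transcriptome, above 44.7% of tested genes. The ranges over the 4 libraries overlapped between neighbours COL6A1 and COL1A2, COL1A1 and COL9A3, COL6A2 and COL26A1, COL26A1 and COL4A2, COL27A1 and COL12A1, COL12A1 and COL11A1, COL4A6 and COL3A1, and COL3A1 and COL14A1. COL26A1 was above COL4A2 in each of the 4 libraries. In 4 of the pairs the order differed by condition: COL9A3 was above COL1A1, COL11A1 above COL12A1, COL4A6 above COL3A1 and COL14A1 above COL3A1 in both 2-D libraries, and the reverse held in both 3-D libraries. In the pairs COL6A1 and COL1A2, COL6A2 and COL26A1, and COL27A1 and COL12A1 the order differed between replicates. The other neighbouring pairs down to COL14A1 did not overlap.

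**Figure D1:**
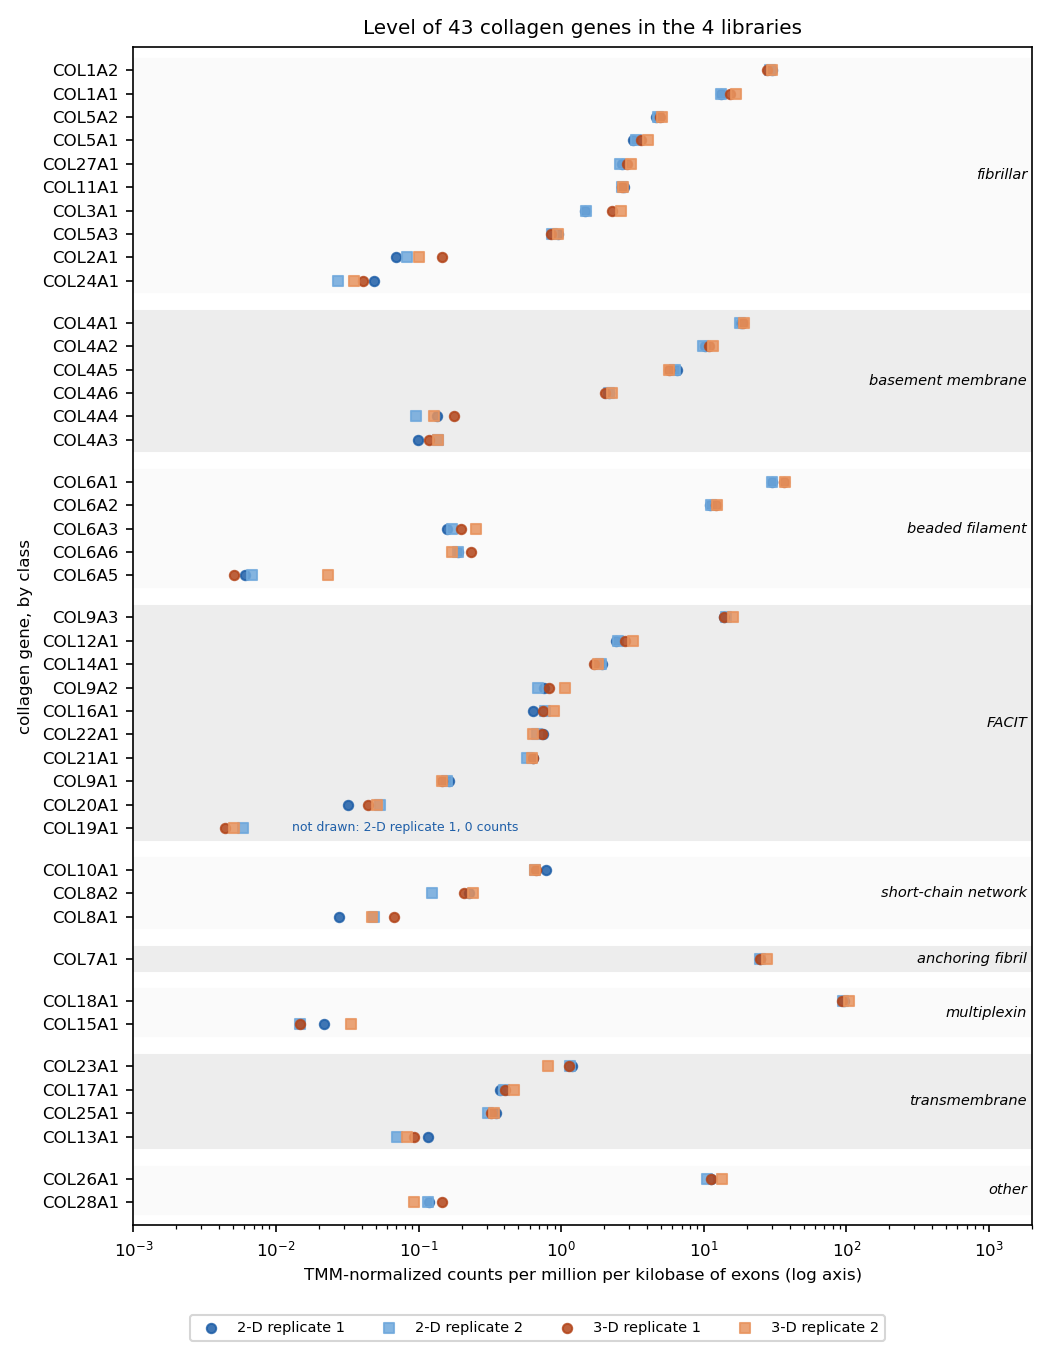
Level of each of the 43 collagen genes in the 4 libraries, as TMM-normalized CPM per kilobase of exons on a log axis, grouped by class; each point is 1 library and a library with 0 counts is named instead of drawn. COL18A1 lies at the far right with a mean of 96.8, while COL19A1, COL6A5 and COL15A1 lie at the far left.

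By class, the make-up of the collagen pool was nearly the same in all libraries, as shares of the summed CPM per kilobase. COL18A1 alone gave 32.7% and 32.5% in 2-D and 30.9% and 31.7% in 3-D. Fibrillar collagens gave 20.1% in each of the 4 libraries. Basement membrane collagens gave 12.6% and 12.5% in 2-D and 12.5% and 11.9% in 3-D. Beaded filament collagens gave 14.1% and 14.3% in 2-D against 16.2% and 15.3% in 3-D, the class whose share was higher in both 3-D libraries than in either 2-D library by more than 1 percentage point. FACIT collagens gave 7.21% and 7.42% in 2-D and 7.17% and 7.50% in 3-D, and COL7A1 gave 8.39%, 8.56%, 8.28% and 8.51% in the same order of libraries.

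**Figure D2:**
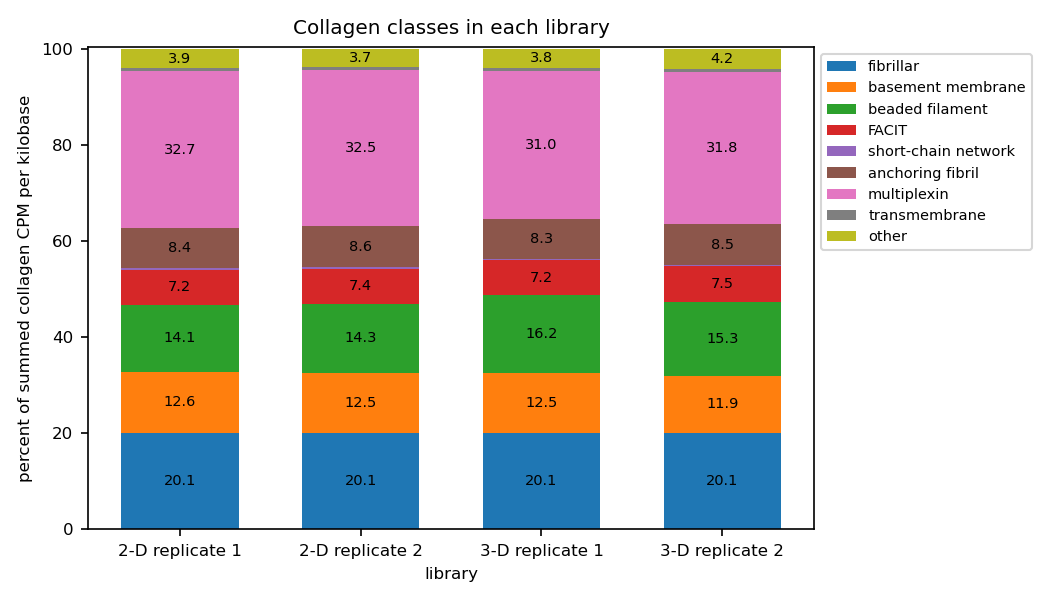
Share of each collagen class in the summed collagen CPM per kilobase, in percent, with 1 stacked bar per library and 1 segment per class. Fibrillar collagens make up 20.1% of every bar, and the beaded filament segment is 14.1% and 14.3% in 2-D against 16.2% and 15.3% in 3-D.

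Of the 43 collagens, 39 passed edgeR's filter on low counts and were tested, and 37 of these reached its CPM minimum of 0.390 in all 4 libraries. A gene was called if edgeR's quasi-likelihood test gave it an adjusted p below 0.05, where the Benjamini-Hochberg procedure took in the 22555 genes tested. COL6A1, COL3A1, COL1A1, COL12A1 and COL4A2 were called higher in 3-D grown cells and COL4A5 was called lower. The 5 higher calls are 12.8% of the tested collagens, against 4.54% of all tested genes. The single lower call is 2.56% of them, against 3.36%. In either direction, 15.4% of collagens and 7.90% of all genes were called. Both 3-D libraries lay above both 2-D libraries for 15 collagens (38.5%, against 25.4% of all genes) and below them for 4 (10.3%, against 25.1%). The log2 fold change of 3-D over 2-D was positive for 28 collagens and negative for 11, with a median of 0.11 beside 0.00 (-0.000135) over all genes. With library size in place of the TMM factors the split was 24 to 15 and the medians were 0.05 and -0.06, and the share of higher calls among all called genes was 21.5% in place of 57.5%.

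COL6A1, COL3A1, COL1A1 and COL12A1 kept their calls under all 10 alternative settings and left-out libraries. The call of COL4A2 was lost with library size only (adjusted p = 0.1152 in edgeR) and without either 2-D replicate (adjusted p = 0.0634 and 0.1586). That of COL4A5 was lost with DESeq2 (adjusted p = 0.2134) and without either 2-D replicate (adjusted p = 0.2834 and 0.1155). The 3-D replicates were not equal in this gene group. Of the 19 collagens that were called or had a mean of at least 10 CPM, 18 were higher in 3-D replicate 2 than in 3-D replicate 1, as were 49.9% of all tested genes. Without 3-D replicate 1, the median log2 fold change of the tested collagens was 0.159, beside -0.00128 over all genes. Without 3-D replicate 2, it was 0.068, beside -0.00501 over all genes. The cause of this gap between replicates was not tested.

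**Figure D3:**
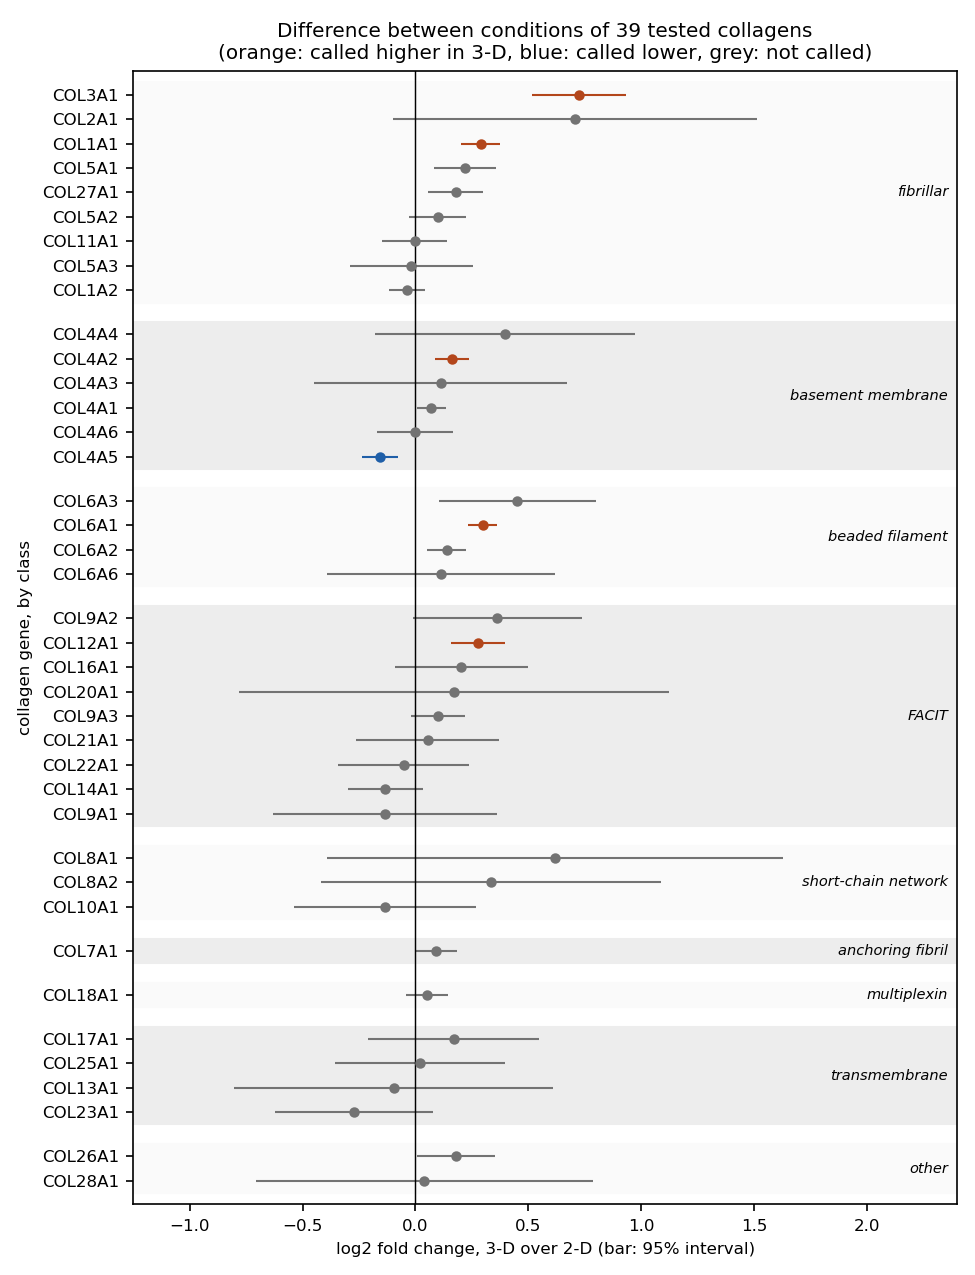
Log2 fold change of 3-D over 2-D for the 39 tested collagens, by class, with bars for the 95% interval of edgeR's fit; orange marks genes called higher, blue called lower and grey not called. The 5 orange genes lie between 0.16 and 0.73, COL4A5 lies at -0.16, and low-count genes such as COL2A1 carry wide bars.

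Among the fibrillar collagens, the RNAs for the type III chain and the type I α1 chain rose in 3-D grown cells, whereas that for the type I α2 chain did not pass the test. Of 10 genes in the class, 9 were tested, with a median log2 fold change of 0.18. Of these, 2 were called higher (22.2%, against 4.54% of all tested genes) and none lower. The median standard error was 0.063 in this class and 0.122 over all tested genes, and its part in the share called was not tested. COL3A1 (chromosome 2, 188974373 to 189012746, plus strand), the chain of the type III homotrimer of extensible tissues, had 9.93 and 10.03 CPM in 2-D and 15.2 and 17.8 CPM in 3-D. It was 65.4% higher in 3-D, and both 3-D libraries stood well clear of the 2-D libraries (log2 fold change 0.73, standard error 0.10, edgeR adjusted p = 0.0007044). COL1A1 (chromosome 17, 50184101 to 50201632, minus strand) had 118.4 and 118.7 CPM in 2-D and 138.2 and 151.8 CPM in 3-D. The groups did not overlap and the rise was 22.2% (log2 fold change 0.29, standard error 0.04, edgeR adjusted p = 0.0007792). COL1A2 (chromosome 7, 94394895 to 94431227, plus strand), which gives the partner chain of type I collagen, had 324.8 and 316.3 CPM in 2-D and 300.7 and 324.5 CPM in 3-D. Its groups overlapped, with a log2 fold change of -0.04 and a 95% interval of -0.12 to 0.04 (edgeR adjusted p = 0.6488). Without 3-D replicate 2, the same gene was called lower (edgeR adjusted p = 0.03211), and without 3-D replicate 1 its sign turned to 0.02.

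The remaining fibrillar collagens did not pass the test. COL5A1, a chain of the type V collagen that sets fibril diameter, had 35.7 and 37.6 CPM in 2-D and 40.4 and 45.02 CPM in 3-D, with groups apart (log2 fold change 0.22, standard error 0.06, edgeR adjusted p = 0.05211). It passed the threshold with no filter on low counts, with a replicate block and without 3-D replicate 1. COL5A2, its partner, had 33.6 and 34.9 CPM in 2-D and 36.0 and 37.4 CPM in 3-D (log2 fold change 0.10, standard error 0.06, edgeR adjusted p = 0.3822). COL27A1, a fibrillar collagen known from cartilage, had 37.4 and 36.3 CPM in 2-D and 40.4 and 42.95 CPM in 3-D (log2 fold change 0.18, standard error 0.06, edgeR adjusted p = 0.07877). In each of these genes the 3-D libraries were the higher ones. COL11A1, which nucleates cartilage fibrils, had 25.1 and 24.2 CPM in 2-D and 24.4 and 24.8 CPM in 3-D, with overlapping groups and a 95% interval of -0.15 to 0.14 (edgeR adjusted p = 0.9851). COL5A3 had a mean of 6.16 CPM in 2-D and 6.11 in 3-D. COL2A1, the main cartilage collagen, had only 16 and 17 counts in 2-D and 20 and 12 in 3-D, so its log2 fold change of 0.71 has an interval of -0.10 to 1.51 (edgeR adjusted p = 0.3057). COL24A1, with 16 and 8 counts in 2-D and 8 and 6 in 3-D, was not tested.

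Among the basement membrane collagens the called genes moved in opposite directions: COL4A2 rose and COL4A5 fell. All 6 were tested, and the median log2 fold change was 0.09. COL4A2 (chromosome 13, 110305812 to 110513209, plus strand), the α2 chain of the ubiquitous type IV molecule, had 194.8 and 190.7 CPM in 2-D and 209.1 and 222.5 CPM in 3-D. The groups did not overlap and the rise was 11.9% (log2 fold change 0.16, standard error 0.03, edgeR adjusted p = 0.01303). COL4A1, which shares the stretch printed above and gives the α1 chain, had 266.1 and 262.7 CPM in 2-D and 275.2 and 280.4 CPM in 3-D. The 3-D libraries were again the higher ones, but the difference did not pass the threshold (log2 fold change 0.07, standard error 0.03, edgeR adjusted p = 0.189). COL4A5 (chromosome X, 108439838 to 108697545, plus strand), a chain of the type IV molecules of kidney and smooth muscle, had 76.5 and 74.25 CPM in 2-D and 67.7 and 67.6 CPM in 3-D. It was the only collagen called lower, with the 3-D replicates nearly equal to each other (log2 fold change -0.16, standard error 0.04, edgeR adjusted p = 0.0204). COL4A6, its head-to-head neighbour, had 19.98 and 20.1 CPM in 2-D and 18.9 and 21.2 CPM in 3-D, with an interval of -0.17 to 0.17 (edgeR adjusted p = 0.9945). COL4A3 and COL4A4, the chains of the glomerular basement membrane, had 27 to 55 counts per library and did not pass the test (log2 fold changes 0.11 and 0.40).

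Among the beaded filament collagens, COL6A1 had the smallest adjusted p of all the collagens. The 4 tested members had a median log2 fold change of 0.22. Both 3-D libraries lay above both 2-D libraries for 3 of them, as they did for 25.4% of all tested genes. COL6A1 (chromosome 21, 45981770 to 46005050, plus strand), the α1 chain of type VI collagen, had 165.3 and 165.5 CPM in 2-D and 201.2 and 205.6 CPM in 3-D. The replicates were close within each condition and the rise was 23.0% (log2 fold change 0.30, standard error 0.03, edgeR adjusted p = 8.8e-05). COL6A2, the α2 chain from the same chromosome, had 58.8 and 60.1 CPM in 2-D and 64.5 and 66.4 CPM in 3-D. Its groups were apart as well, but its adjusted p missed the threshold (log2 fold change 0.14, standard error 0.04, edgeR adjusted p = 0.05096), passing it with a replicate block and without 3-D replicate 1. COL6A3, the long α3 chain that completes the classical type VI molecule, was scarce, at 3.40 and 3.70 CPM in 2-D and 4.28 and 5.47 CPM in 3-D (log2 fold change 0.45, standard error 0.16, edgeR adjusted p = 0.1182). COL6A6 had 27 to 57 counts per library and a log2 fold change of 0.11. COL6A5 had 2 counts in each 2-D library and 1 and 4 in 3-D, and was not tested.

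Of the FACIT collagens, 9 of 10 were tested, with a class median of 0.10. Only COL12A1 was called, as higher (11.1% of the class, against 4.54% of all tested genes). COL12A1 (chromosome 6, 75084326 to 75206267, minus strand), the type XII collagen found on fibre surfaces in dense connective tissue, had 45.9 and 47.2 CPM in 2-D and 53.1 and 59.8 CPM in 3-D. All 3-D values exceeded the 2-D values, by 21.1% in the fit (log2 fold change 0.28, standard error 0.06, edgeR adjusted p = 0.00926). COL14A1, the type XIV collagen of a similar build, had 19.6 and 19.4 CPM in 2-D and 17.2 and 18.5 CPM in 3-D. It lay lower in both 3-D libraries without passing the test (log2 fold change -0.13, standard error 0.08, edgeR adjusted p = 0.3538). COL9A3, a chain of cartilage type IX collagen, had 66.8 and 68.9 CPM in 2-D and 67.6 and 78.0 CPM in 3-D (log2 fold change 0.10, standard error 0.05, edgeR adjusted p = 0.3312). Its groups overlapped, and 3.20% of its exon bases also lie in exons of TCFL5 on the other strand. Per kilobase of exons the type IX partners COL9A1 and COL9A2 were far scarcer than COL9A3, at 0.153 and 0.832 CPM against 14.5. COL16A1, COL20A1, COL21A1 and COL22A1 had log2 fold changes of -0.05 to 0.20 and none passed the test. COL19A1 held 0 and 2 counts in 2-D and 1 count in each 3-D library, and was not tested.

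In the remaining classes no collagen passed the test with all 4 libraries. COL7A1, which forms the anchoring fibrils under the epidermis, had 273.7 and 276.9 CPM in 2-D and 277.6 and 309.4 CPM in 3-D (log2 fold change 0.09, standard error 0.04, edgeR adjusted p = 0.2411). Only 3-D replicate 2 stood away from the 2-D libraries: leaving it out gave a log2 fold change of 0.01, and leaving out 3-D replicate 1 gave 0.17 and a higher call (edgeR adjusted p = 0.0002765). COL18A1 (chromosome 21, 45405165 to 45513720, plus strand) had 810.2 and 800.0 CPM in 2-D and 788.6 and 878.0 CPM in 3-D, with overlapping groups and an interval of -0.04 to 0.14 (edgeR adjusted p = 0.576). Its sign turned with library size only (-0.01) and without 3-D replicate 2 (-0.03), and it was called higher without 3-D replicate 1 (0.12, edgeR adjusted p = 0.004043). Of its exon bases, 18.5% also lie in exons of the folate transporter gene SLC19A1 on the opposite strand, which had 321.9 and 320.0 CPM in 2-D and 342.2 and 357.0 CPM in 3-D and was called higher (log2 fold change 0.12, edgeR adjusted p = 0.03263). The strand setting of the counting is not given in the sources used here, so reads of this overlap may be shared between the genes. COL26A1, a secreted collagen of developing reproductive tissue, had 34.9 and 32.6 CPM in 2-D and 34.8 and 41.8 CPM in 3-D (log2 fold change 0.18, standard error 0.08, edgeR adjusted p = 0.2112), and its groups overlapped. Leaving out 3-D replicate 2 gave a log2 fold change of 0.04, and leaving out 3-D replicate 1 gave 0.31 and a higher call (edgeR adjusted p = 0.0059).

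The scarcer members of these classes had 4.67 CPM or less on average. Of the transmembrane collagens, COL23A1 gave a log2 fold change of -0.27 with an interval of -0.62 to 0.08, while COL13A1, COL17A1 and COL25A1 gave -0.10, 0.17 and 0.02. Of the short-chain network collagens, COL8A1 gave 0.62 with an interval of -0.39 to 1.63, COL8A2 gave 0.33 and COL10A1, the collagen of hypertrophic cartilage, gave -0.13. COL28A1 gave 0.04. COL15A1, the other multiplexin, held 5 and 3 counts in 2-D and 2 and 4 in 3-D, and was not tested. The intervals of all the tested genes in this scarcer group included 0.

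Ratios of chains within a library do not depend on how the libraries were scaled, and they were computed per exon length. Not every pair shares a helix: COL3A1, the chain of a homotrimer, is not a partner of the type I chains. Per unit of length, COL1A1 stood to COL1A2 at 0.437 and 0.451 in 2-D and at 0.552 and 0.561 in 3-D, 25.4% higher in the mean. Type I collagen is classically built from α1 and α2 chains in the ratio of 2 to 1, whereas here the α2 RNA was the more abundant in every library. COL3A1 stood to COL1A2 at 0.0489 and 0.0507 in 2-D and at 0.0810 and 0.0880 in 3-D. To COL1A1, which is itself among the called genes, it stood at 0.112 and 0.113 in 2-D and at 0.147 and 0.157 in 3-D, and COL6A1 to COL6A2 at 2.71 and 2.65 in 2-D and 3.01 and 2.98 in 3-D. COL4A2 stood to COL4A1 at 0.557 and 0.552 in 2-D and 0.578 and 0.604 in 3-D, 6.52% higher in the mean. COL4A5 stood to COL4A1 at 0.355 and 0.349 in 2-D and 0.304 and 0.298 in 3-D, a difference of -14.5%. COL4A5 to its neighbour COL4A6 was 2.99 and 2.89 in 2-D and 2.80 and 2.49 in 3-D. COL5A1 to COL5A2 went from 0.696 and 0.705 to 0.737 and 0.789. COL6A3 to COL6A2 was low throughout, from 0.0143 to 0.0204. Most of these ratios set a called gene over a gene that was not called, so they restate the calls on another scale and are given as a description. With 2 libraries against 2 an exact permutation test cannot give a p below 0.333, so no p is given. Exon length here counts every annotated exon, so a ratio is a relative measure and not a chain count.

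**Figure D4:**
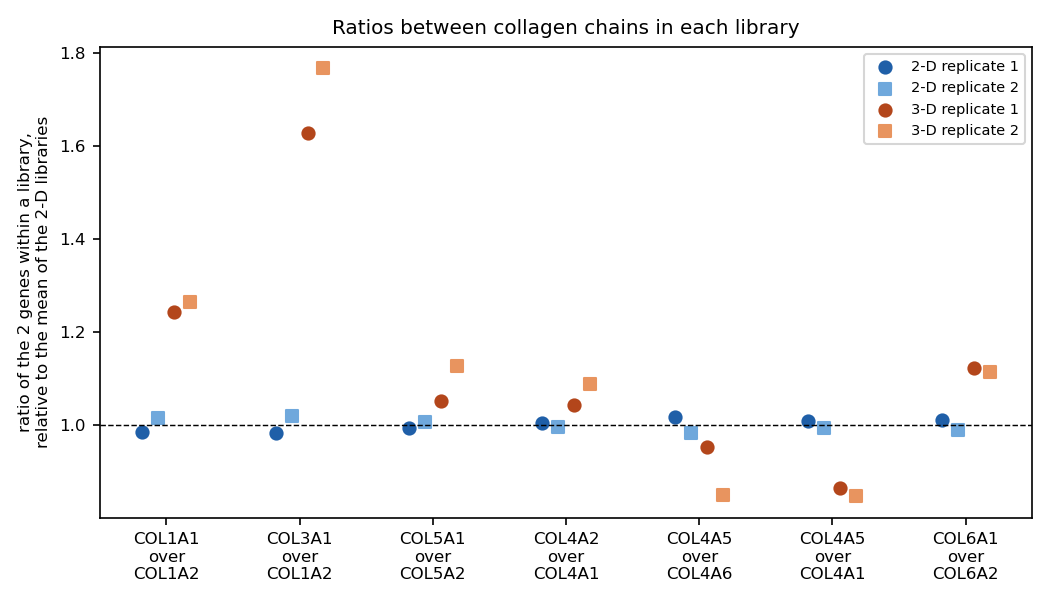
Ratios between collagen chains within each library, plotted relative to the mean of the 2-D libraries (dashed line at 1), with each point a library. COL3A1 over COL1A2 stands highest in 3-D, 69.7% above the 2-D mean, and COL4A5 over COL4A1 lies below the line in both 3-D libraries.

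A list of 49 genes that make, export, process, cross-link or bind collagen was measured in the same fit, and 45 were tested. Of these, 9 were called higher in 3-D (20%, against 4.54% of all tested genes) and 1 lower (2.22%, against 3.36%), with 25 above and 20 below 0 and a median log2 fold change of 0.03. The median standard error was 0.076 in this list and 0.122 over all tested genes. Its part in the shares called was not tested. In modification and folding, 5 of 19 were called higher. P4HB, the β subunit of the prolyl 4-hydroxylase that stabilises the helix, had 297.6 and 293.6 CPM in 2-D and 324.0 and 327.9 CPM in 3-D (log2 fold change 0.14, edgeR adjusted p = 0.01177). The others were PPIB, a prolyl isomerase (0.14, edgeR adjusted p = 0.01726), PLOD1, a lysyl hydroxylase (0.22, edgeR adjusted p = 0.0114), FKBP10, a collagen chaperone (0.20, edgeR adjusted p = 0.007234), and SERPINH1, the collagen-specific chaperone HSP47 (0.12, edgeR adjusted p = 0.04039). The prolyl 4-hydroxylase α subunits P4HA1 and P4HA2 gave log2 fold changes of -0.09 and 0.06 and were not called.

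In secretion, MIA3, which loads collagen into transport carriers, was called higher (log2 fold change 0.14, edgeR adjusted p = 0.02156) and TRAPPC2, a tethering subunit, was called lower, with 26.6 and 27.3 CPM in 2-D and 20.7 and 22.1 CPM in 3-D (log2 fold change -0.34, edgeR adjusted p = 0.01059). TRAPPC2 has a near-identical processed copy, TRAPPC2B, which had 3.63 and 3.93 CPM in 2-D and 4.09 and 4.13 CPM in 3-D, so the split of reads between them is uncertain. In propeptide processing none of 7 tested genes was called, beside 7.90% of all tested genes in either direction. The procollagen C-proteinase enhancer PCOLCE came near the threshold (log2 fold change 0.31, edgeR adjusted p = 0.05741). In cross-linking, LOX, lysyl oxidase, had 2.47 and 2.69 CPM in 2-D and 4.67 and 4.74 CPM in 3-D, the largest change of the list at a log2 fold change of 0.87 with a standard error of 0.16 (edgeR adjusted p = 0.004583). PXDN, the peroxidase that forms the sulfilimine cross-links of type IV collagen, was called higher at 0.14 (edgeR adjusted p = 0.01781). Among receptors, ITGB1, the β subunit of the collagen-binding integrins, was called higher, with 519.1 and 515.3 CPM in 2-D and 571.5 and 593.7 CPM in 3-D (log2 fold change 0.17, edgeR adjusted p = 0.004848). The α subunits of these integrins, ITGA1, ITGA2, ITGA10 and ITGA11, gave log2 fold changes of 0.20, -0.10, -0.38 and 0.08. None of these α subunits was called, nor were the receptors DDR2 (0.15) and MRC2 (0.23). With library size only, LOX alone of the 9 stayed called higher. Without 2-D replicate 1, 2 genes of the list were called higher, and without 2-D replicate 2, 1 gene was. TLL1, GP6 and LAIR1 were not tested because of low counts. Nor was DDR1, a collagen receptor with 0 to 2 counts per library. DDR1 lies in a region with alternate contigs in hg38 and the treatment of reads with several positions is not given, so this count is uncertain and is not read as absence.

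**Figure D5:**
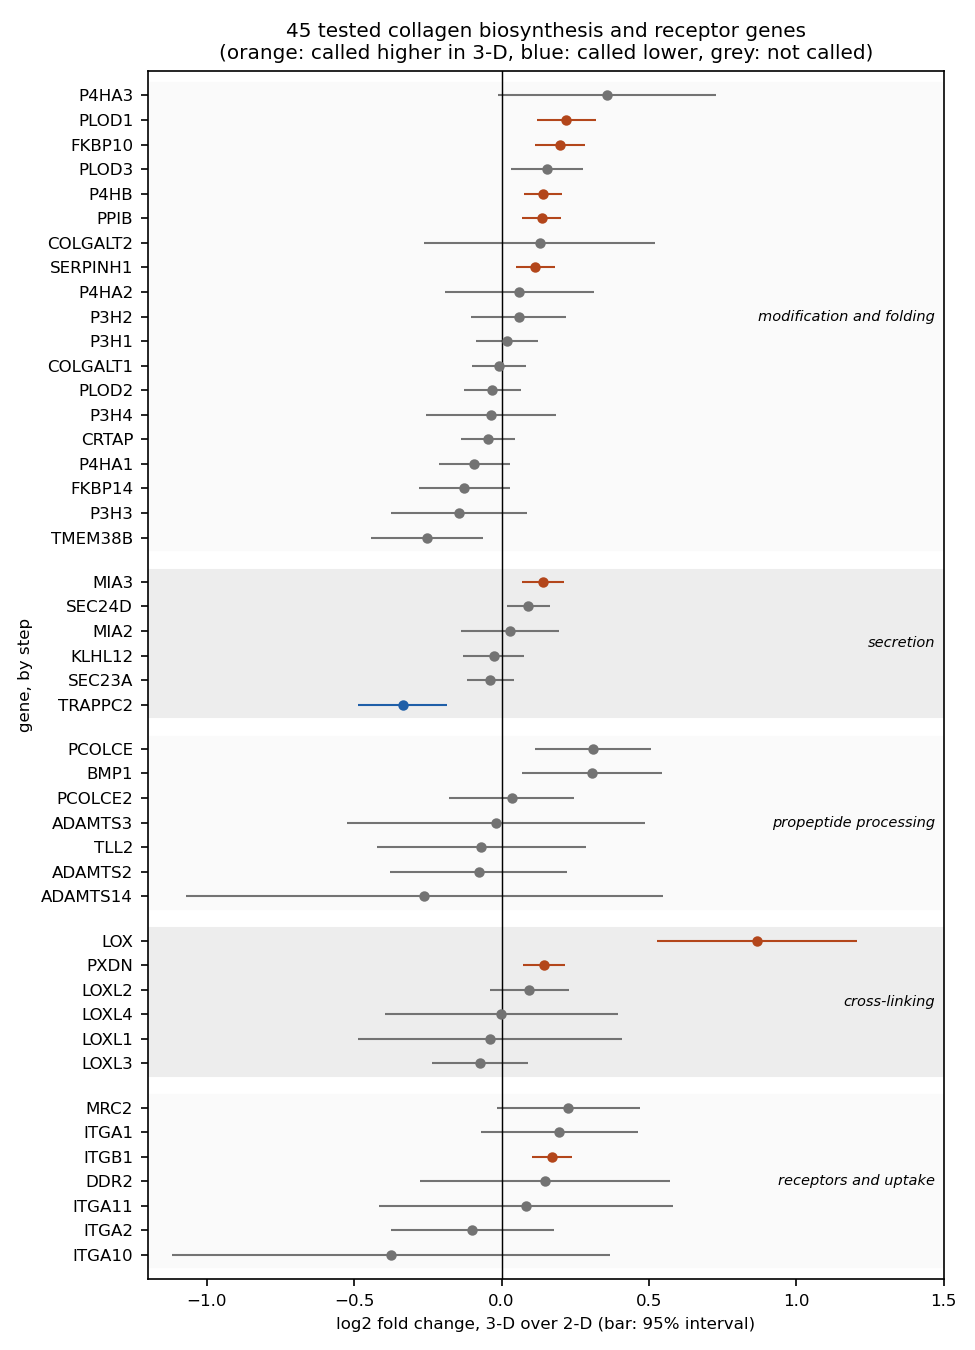
Log2 fold change of 3-D over 2-D for the 45 tested genes of collagen biosynthesis, cross-linking and receptors, by step, with bars for the 95% interval. LOX stands farthest to the right at 0.87, and 9 genes are called higher and TRAPPC2 lower.

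Markers of other cell types moved in part with the collagens. Fibroblast and other mesenchyme markers summed to 97.8 and 97.4 CPM in 2-D and 108 and 118 CPM in 3-D. Of 8 tested genes 2 were called higher (25%, against 4.54% of all tested genes), THY1 (75.8 and 75.2 CPM in 2-D, 84.8 and 91.0 in 3-D, edgeR adjusted p = 0.00453) and POSTN (4.09 in both 2-D libraries, 5.64 and 7.25 in 3-D, edgeR adjusted p = 0.01805). THY1, which is also a surface antigen of ESCs, made up most of the sum. S100A4 went the other way without passing the test, with 2.87 and 2.50 CPM in 2-D and 1.80 and 1.39 in 3-D (log2 fold change -0.74, edgeR adjusted p = 0.05344). LUM and DCN, defining genes of fibroblasts, were at or below 0.948 CPM in every library.

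The other marker sums were each carried largely by 1 or a few genes. Cartilage markers summed to 44.3 and 45.7 CPM in 2-D and 51.2 and 50.8 CPM in 3-D, mostly CNMD, which was called higher, while ACAN was lower in both 3-D libraries without passing the test. Endothelial markers summed to 147 and 148 CPM in 2-D and 158 and 153 CPM in 3-D. Nearly all of this was KDR, at 146.5 to 156.9 CPM, and PECAM1 and CDH5 were at 0.232 CPM or less in every library. Neural markers summed to 592 and 586 CPM in 2-D and 611 and 609 CPM in 3-D, mostly NES at 576.8 to 602.3 CPM, while TUBB3 and PAX3 were lower in both 3-D libraries. Neither KDR nor NES was called. Extraembryonic endoderm markers summed to 8.48 and 8.53 CPM in 2-D and 9.93 and 10.04 CPM in 3-D, led by GATA4, and HNF4A and APOA1 were at 0.389 CPM or less. Trophoblast markers summed to 2.38 and 2.82 CPM in 2-D and 2.92 and 3.07 CPM in 3-D, mostly KRT7, with CGA and VGLL1 at 0 in every library. On the TMM scale every one of these sums, like that of the pluripotency markers, was higher in both 3-D libraries, although single members went either way. The TMM factors were 1.020 and 1.025 in 2-D and 0.973 and 0.983 in 3-D. Rises as small as those of the pluripotency and neural sums therefore depend on the scaling, as for the collagen pool. The part of these markers in the collagen differences was not tested.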

How the data were processed

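Total RNA of 2-D and 3-D grown Elf1 cells was depleted of ribosomal RNA and sequenced with paired ends. Per the study's methods and processing notes, the authors trimmed reads with Trim Galore 0.6.3, mapped them to hg38 with HISAT2 2.1.0 and counted them with featureCounts 1.6.4 on GENCODE release 30. Each of the 4 libraries has deposited raw counts, 1 whole number for a gene, neither normalized nor pooled. The strand setting and the treatment of reads with several positions are not given in the sources used here. A second deposited table holds the authors' normalized values and their DESeq2 2.11.40.6 comparison; it was not used.

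Identifiers were matched to symbols, positions and exon lengths of GENCODE release 44 (60295 of 60564, the others holding 0.122% of counts). Counts were tested with edgeR 4.0.16 (R 4.3.3): TMM factors, filterByExpr, quasi-likelihood test, condition only, Benjamini-Hochberg adjustment over 22555 genes. CPM uses the TMM factors. The standard error is the size of the log2 fold change over the square root of F. DESeq2 1.42.0, its size factors in edgeR, library size only, a replicate block, no filter, a filter of at least 10 counts per library and leaving out each library were the alternatives. The test was checked on counts simulated with the same dispersion for every gene. Of 50 genes each with a true log2 change of 0.3, 0.6, 1 and 2 in size, it called 20%, 58%, 76% and 94%. Of the unchanged genes it called 0.0229%. Between replicates the chi-square over its degrees of freedom was 2.45 in 2-D and 4.39 in 3-D, above sampling noise, and each library was kept.

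The members and lists were chosen with earlier results of these data known. Full values are given for collagens that were called or had a mean of at least 10 CPM, and for called genes of the biosynthesis list. No other region of hg38 matched a collagen transcript over at least 80% of its length at 98% identity (minimap2 2.31-r1302). Sequences are from RefSeq (GRCh38.p14).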

Additional observations from a re-analysis of the deposited data

How the results depend on the processing

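Among the comparisons of a named gene with an alternative, 232 kept their direction and side of the threshold, 37 lost it, 12 gained it and 8 turned in sign, all 8 in genes that were not called. With library size only, the log2 fold change of COL18A1 was -0.0145. Leaving out 1 library at a time, it ranged from -0.0313 to 0.124 for COL18A1, from -0.0940 to 0.0165 for COL1A2, from -0.0288 to 0.02265 for COL11A1, from -0.0869 to 0.0805 for COL4A6 and from -0.00687 to 0.201 for COL9A3. With DESeq2, 0 collagens were called lower (1 had an unadjusted p below 0.05, and edgeR called 1), 4 biosynthesis and receptor genes were called higher and 0 lower (TRAPPC2 had an adjusted p of 0.06212, and edgeR called 1), and 491 of all genes were called higher and 280 lower. DESeq2 gave an adjusted p to 19 collagens, against 39 in edgeR, and it gave none to LOX. With library size only, 1 biosynthesis and receptor gene was called higher and 2 lower, and 514 of all genes higher and 1879 lower, against 1024 and 758. Leaving out 1 library, the ranges were 4 to 14 collagens higher and 0 to 2 lower, 1 to 9 biosynthesis and receptor genes higher and 0 to 1 lower, and 448 to 1324 of all genes higher and 326 to 1066 lower. The cause of these shifts was not tested. Where a condition keeps 1 library, that library is assumed to vary like the others.

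The replicate numbers are shared between conditions, but the labels do not say that they pair the samples, and the deviations of replicate 1 from the group means did not correlate (r = -0.0079 across 22555 genes). With a replicate block, 7 collagens were called higher and 1 lower, 9 biosynthesis and receptor genes higher and 1 lower, and 1223 of all genes higher and 944 lower. With 2 libraries per condition and 18276147 to 33833778 counts, collagens of a few counts per library could not be compared.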
